A study of Mus musculus with 9 samples.

Results

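Arntl, Clock, Npas2, Rora, Bhlhe40 and Bhlhe41 are the genes of the mammalian circadian clock that encode its activators and the factors sharing their binding sites. They were taken by name, and all 6 were found among the 23747 genes of the deposited tables. The clock is a loop of transcription that nearly every cell runs for itself, in which ARNTL (also called BMAL1) pairs with CLOCK, or with its paralogue NPAS2, and binds E-boxes in the genes of its own repressors, the PER and CRY proteins and the REV-ERB receptors. RORA, a nuclear receptor, competes with REV-ERB for the sites through which Arntl is transcribed, and BHLHE40 and BHLHE41 (DEC1 and DEC2) bind E-boxes and repress. In the heart, the cardiomyocyte clock is known to set daily rhythms of metabolism and contraction.

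Single-nucleus RNA sequencing (sNuc-seq) was performed on heart tissue of 9 mice, 3 in each of 3 groups, and the study's methods give them as C57BL/6 mice of 8 weeks. Sham mice were gavaged with vehicle (sodium carboxymethyl cellulose) for 7 days and had the needle passed with no ligation. I/R mice were given the same vehicle for 7 days, then a 30 min ligation of the left anterior descending coronary artery (LAD) and 24 h of reperfusion. SBP mice were given Shexiang Baoxin Pill, called MUSKARDIA in the labels and a traditional Chinese medicine, in place of vehicle for 7 days before the same I/R. According to the study the tissue came from below the ligation. The hour at which the hearts were taken is not given in the sources used here, and levels of clock genes follow the hour of day. Any difference in hour between the groups could not be told apart from an effect of I/R or SBP.

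The 9 libraries held 49171 nuclei and 135423853 unique molecular identifiers (UMIs), 4576 to 6418 nuclei and 10329520 to 18205985 UMIs per mouse. The study states more nuclei than these tables hold, and the others were not analysed here. Nuclei were clustered without the 6 genes and named from markers, so each name stands for nuclei that resemble the type: 10549 cardiomyocyte, 13471 endothelial, 14142 fibroblast and 9591 myeloid nuclei. Between 4 and 14 barcodes were shared by any pair of libraries. I/R replicate 1 stood apart in cardiomyocytes, where 867 of its nuclei fell in the cluster led by Gm17428 and Mhrt that held most sham nuclei, against 0 and 59 for I/R replicates 2 and 3, most of whose cardiomyocyte nuclei lay in the cluster led by Ankrd1. The fibroblast cluster led by Tnc and the myeloid cluster led by Gpnmb held 11 and 31 sham nuclei, and most sham myeloid nuclei lay in the cluster led by Cd163. Cardiomyocyte RNA was present in the other types and was higher in sham. The summed level of the 7 cardiomyocyte markers, all of them detected, was 7292 to 9115 CPM (UMIs of a cell type and mouse scaled to a common total) in sham and 2879 to 5080 CPM in I/R endothelial nuclei, 4382 to 5589 against 1526 to 2488 CPM in fibroblast nuclei and 5691 to 7057 against 1696 to 2764 CPM in myeloid nuclei. None of the 7 markers was at 0 there, and their part in the differences of the endothelial and myeloid nuclei was not tested.

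The 6 genes lie on 5 mouse chromosomes (GRCm38). Arntl spans chr7:113207465-113314126 on the plus strand and Clock chr5:76209868-76304792 on the minus strand. Npas2 spans chr1:39193731-39363236 and Rora chr9:68653786-69388246, both on the plus strand, and with 734 kb Rora is the longest of the 6. Bhlhe40, at chr6:108660629-108666925 on the plus strand, and Bhlhe41, at chr6:145858243-145865558 on the minus strand, are 6.3 and 7.32 kb long. Bhlhe40 shares 306 bases with the antisense gene 0610040F04Rik, which had 975 UMIs in all, and whether the counting used the strand is not given in the sources used here.

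RefSeq windows of 250 bases before to 50 bases after a start (GRCm38.p6) were at hand for 5 of the 6 genes, 8 windows in all. Both strands were searched for 4 motifs, the E-box CACGTG, the related CACGTT, the D-box (TTATGTAA or TTACGTAA) and AGGTCA, the half-site that RORA and REV-ERB bind. The 3 windows with a match are shown because they place the letters these factors recognise beside the genes described here, and capitals mark the match. In the Arntl window, chr7:113207261-113207560 on the plus strand, AGGTCA began at base 32 after the start. The Clock window, chr5:76303453-76303752 on the minus strand, lies inside the gene, and there AGGTCA was on the opposite strand 119 bases before the start (printed as TGACCT). For Bhlhe41, chr6:145865371-145865670 on the minus strand, CACGTG began 153 bases before the start.
Arntl: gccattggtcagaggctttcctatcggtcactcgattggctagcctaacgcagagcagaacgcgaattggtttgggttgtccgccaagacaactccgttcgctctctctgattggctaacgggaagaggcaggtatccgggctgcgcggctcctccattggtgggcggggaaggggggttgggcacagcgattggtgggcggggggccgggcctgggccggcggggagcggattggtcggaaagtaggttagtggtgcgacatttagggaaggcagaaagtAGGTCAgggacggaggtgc
Clock: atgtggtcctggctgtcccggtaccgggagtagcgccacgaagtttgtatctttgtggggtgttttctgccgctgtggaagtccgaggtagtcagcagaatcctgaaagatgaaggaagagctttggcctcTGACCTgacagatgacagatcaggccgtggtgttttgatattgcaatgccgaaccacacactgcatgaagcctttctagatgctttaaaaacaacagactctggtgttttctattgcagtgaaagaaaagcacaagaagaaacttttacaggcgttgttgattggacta
Bhlhe41: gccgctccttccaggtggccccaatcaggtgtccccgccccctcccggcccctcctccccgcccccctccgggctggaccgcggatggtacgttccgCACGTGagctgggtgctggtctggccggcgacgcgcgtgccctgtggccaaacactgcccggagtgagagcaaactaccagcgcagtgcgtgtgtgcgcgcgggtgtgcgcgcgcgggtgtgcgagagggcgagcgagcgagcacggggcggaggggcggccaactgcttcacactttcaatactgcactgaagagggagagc
The other windows of Arntl and Clock and those of Npas2 and Rora held none of these letters, which says nothing of sites elsewhere. Among 32851 windows of the same length, 7.15% held CACGTG, 4.68% CACGTT, 1.06% a D-box and 16.3% AGGTCA, and the matches are a description only.

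The first comparison asked how the 6 genes differed between I/R and sham hearts within each cell type. Arntl and Clock were higher after I/R in all 4 types, Npas2 was higher in fibroblasts, and Rora, Bhlhe40 and Bhlhe41 were lower in fibroblasts, with Rora also lower in endothelial nuclei and Bhlhe41 in cardiomyocytes. Of these calls, 3 depended most on the processing, cardiomyocyte Bhlhe41 being called under 6, myeloid Clock under 7 and endothelial Rora under 15 of the 20 alternatives tried. Each cell type was fitted with limma over all genes that passed a filter on low counts, on log2(CPM + 1), a scale that understates the change of low genes. Called means here that the Benjamini-Hochberg adjusted p did not exceed 0.05 and the fold change differed from 0 by over 0.25 on the log2 scale. All 6 genes passed the filter in all 4 types, and 15 of the 24 values (6 genes in 4 types) were called. In cardiomyocytes 3 of 6 were called, where 0.814% of all genes tested were, in endothelial nuclei 3 of 6 (3.22% of all genes), in fibroblasts 6 of 6 (11.2%) and in myeloid nuclei 3 of 6 (17.7%). The myeloid 3 include Rora, of whose level there RNA of other cell types could give 86.4% or more, as described further on. Without I/R replicate 1, 14 of the 15 calls remained.

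**Figure D1:**
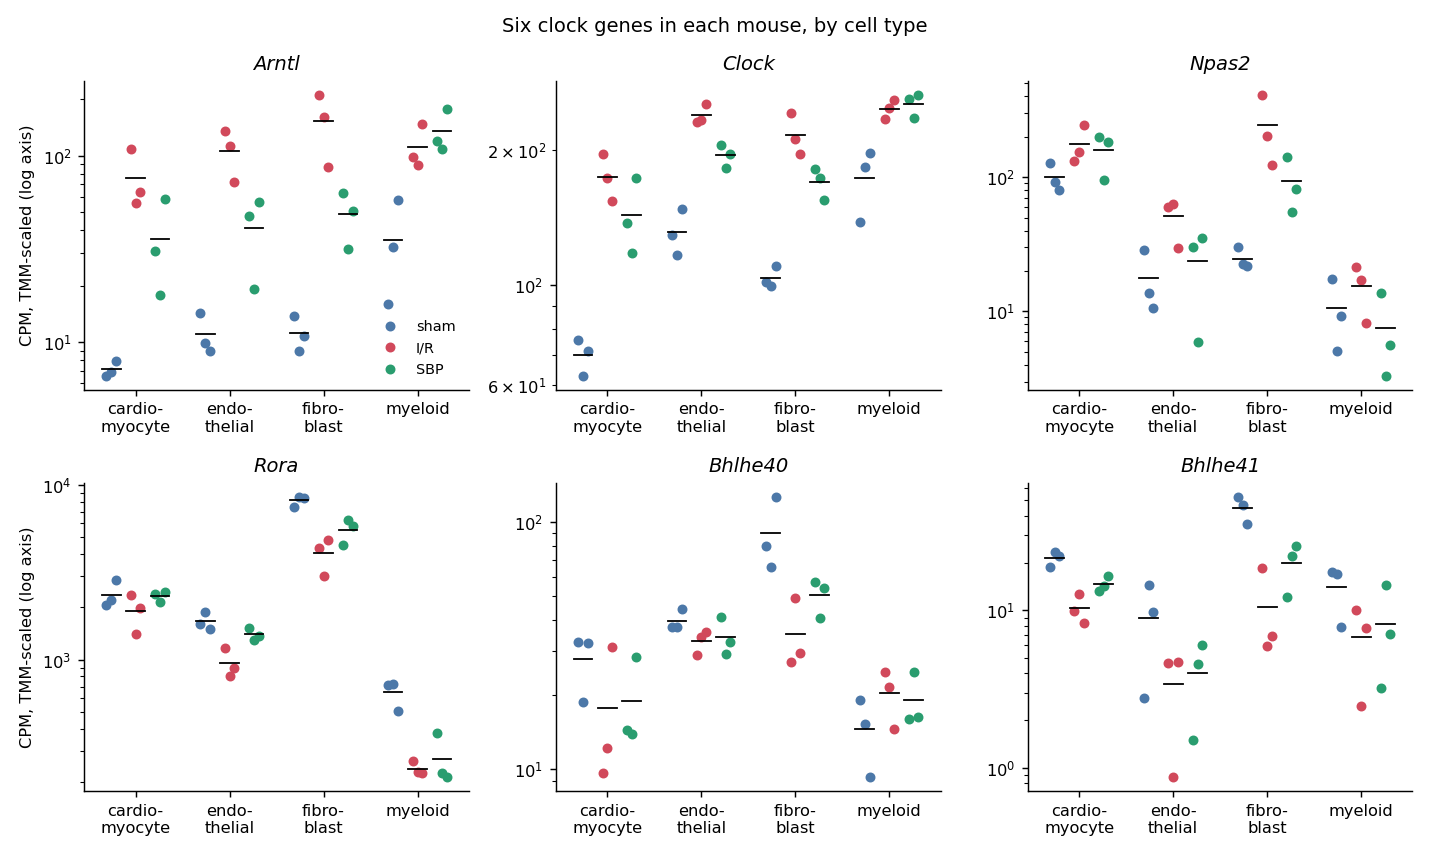
Level of each gene (vertical log axis, TMM-scaled CPM) in each mouse, by cell type along the horizontal axis. Each point is 1 mouse, coloured by group, and each black bar is the mean of 3 mice. For Arntl and Clock the I/R points lie above the sham points in all 4 types, and for Rora they lie below them in endothelial, fibroblast and myeloid nuclei.

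Arntl had the largest change of the 6 genes in each of the 4 types. In fibroblasts it was at 13.9, 8.94 and 10.8 CPM in sham mice 1 to 3, at 211, 160 and 87.2 CPM in I/R mice 1 to 3, and at 63.4, 31.6 and 50.6 CPM in SBP mice 1 to 3. Every I/R mouse was above every SBP mouse and every SBP mouse above every sham mouse. The means were 11.2 ± 2.49, 153 ± 62.3 and 48.5 ± 16.0 CPM (SD, n = 3 per group), and I/R was 12.01-fold above sham (log2 fold change 3.59, SE 0.33, limma adjusted p = 0.000146). In cardiomyocytes the values were 6.603, 6.92 and 7.92 CPM in sham, 108, 55.4 and 63.6 CPM in I/R, and 30.9, 18.0 and 58.8 CPM in SBP. All sham mice lay below all others, while 1 SBP mouse was inside the range of I/R. The I/R value was 9.04-fold above sham (log2 fold change 3.18, SE 0.37, limma adjusted p = 0.00478).

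In endothelial nuclei Arntl was at 14.4, 9.92 and 8.95 CPM in sham, 135, 113 and 72.2 CPM in I/R, and 47.6, 19.2 and 56.6 CPM in SBP. The 3 groups did not overlap, and I/R was 8.78-fold above sham (log2 fold change 3.13, SE 0.38, limma adjusted p = 0.00389). Myeloid nuclei differed in that sham itself was spread from 15.9 through 32.3 to 57.8 CPM, against 97.9, 88.8 and 149 CPM in I/R and 119, 109 and 178 CPM in SBP. All I/R and SBP mice were above the sham mice, and I/R and SBP overlapped. The I/R value was 3.42-fold above sham (1.78 on the log2 scale, SE 0.41, limma adjusted p = 0.0156), and without sham replicate 2 it missed the threshold (log2 fold change 1.80, limma adjusted p = 0.0520). The Arntl calls in cardiomyocytes and fibroblasts were present under each of the 20 alternatives tried. The endothelial call was absent under 1 of them, the subtraction of free RNA at the median marker ratio, with a log2 fold change of 3.15 beside 3.13 without it (limma adjusted p = 0.151). The myeloid call was absent there too, at 1.48 beside 1.78 (limma adjusted p = 0.0598).

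Clock, which encodes the partner of ARNTL and is a histone acetyltransferase, moved less. Cardiomyocytes held 75.5, 62.8 and 71.5 CPM in sham, 196, 174 and 154 CPM in I/R, and 138, 118 and 174 CPM in SBP. The I/R mice were above the sham mice by 2.47-fold (1.31 on the log2 scale, SE 0.18, limma adjusted p = 0.00751), and without sham replicate 3 the call was just missed (log2 fold change 1.32, limma adjusted p = 0.0516). In fibroblasts the values were 102, 99.4 and 110 CPM in sham, 242, 212 and 196 CPM in I/R, and 182, 174 and 155 CPM in SBP. The groups did not overlap there, and the log2 fold change of I/R against sham was 1.05 (SE 0.14, limma adjusted p = 0.000597). Endothelial nuclei showed the same order with no overlap, at 117 to 148 CPM in sham, 231 to 254 CPM in I/R and 183 to 206 CPM in SBP (I/R against sham 0.87 on the log2 scale, SE 0.12, limma adjusted p = 0.00560), a call missed after subtraction of free RNA at the median ratio (0.79, limma adjusted p = 0.124). In myeloid nuclei Clock was at 139 to 198 CPM in sham and 235 to 258 CPM in I/R, a difference of 0.53 on the log2 scale (SE 0.16, limma adjusted p = 0.0361). That call was missed without sham replicate 1 or 2, any one of the 3 I/R replicates, or SBP replicate 2 or 3, with log2 fold changes of 0.36 to 0.64 over all single omissions.

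Npas2, the paralogue of Clock that pairs with ARNTL in its place, was called in fibroblasts and in no other type. Fibroblasts had 30.0, 22.5 and 21.6 CPM in sham, 409, 201 and 123 CPM in I/R, and 142, 55.3 and 82.1 CPM in SBP. All I/R and SBP mice were above all sham mice, and 1 SBP mouse reached the I/R range. I/R was 8.53-fold above sham (3.09 on the log2 scale, SE 0.44, limma adjusted p = 0.00216), and this was called under each alternative. In cardiomyocytes, where Npas2 was already at 127, 92.1 and 79.9 CPM in sham, I/R mice had 131, 153 and 247 CPM and SBP mice 199, 94.7 and 182 CPM. The I/R values did not overlap sham, and the difference was not called (log2 fold change 0.79, 95% interval 0.11 to 1.48, limma adjusted p = 0.287). Endothelial Npas2 was at 10.6 to 28.7 CPM in sham and 29.4 to 63.6 CPM in I/R, with no overlap and no call (log2 fold change 1.52, 95% interval 0.17 to 2.87, limma adjusted p = 0.221). The myeloid values of Npas2 rested on 236 UMIs in 9 mice, at 5.10 to 17.5 CPM in sham and 8.15 to 21.2 CPM in I/R, which overlapped (log2 fold change 0.55, limma adjusted p = 0.502).

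Rora, whose protein activates Arntl, moved the other way. In fibroblasts it was at 7469, 8517 and 8429 CPM in sham, 4335, 3013 and 4806 CPM in I/R, and 4495, 6258 and 5806 CPM in SBP. The I/R mice were all below the sham mice, and SBP mouse 1 lay among the I/R mice. The mean was 8138 ± 581 CPM in sham and 4051 ± 929 CPM in I/R (SD, n = 3 each), 2.04-fold lower (log2 fold change -1.03, SE 0.20, limma adjusted p = 0.00629). Endothelial nuclei had 1601, 1870 and 1496 CPM in sham, 1159, 805 and 899 CPM in I/R, and 1515, 1293 and 1366 CPM in SBP. I/R was below both other groups with no overlap (log2 fold change against sham -0.81, SE 0.16, limma adjusted p = 0.0193). This call was missed without sham replicate 2 (-0.72, limma adjusted p = 0.0947), without I/R replicate 2 (-0.70, limma adjusted p = 0.0900) and after subtraction of free RNA at the lowest marker ratio (-0.69, limma adjusted p = 0.0938). It was also missed with only the 6 mice compared (-0.82, limma adjusted p = 0.0546), and at the median ratio, an amount that came to 105% of the measured sham level, its direction turned (5.23, limma adjusted p = 0.343). Cardiomyocyte Rora overlapped between the groups, at 2038 to 2838 CPM in sham and 1391 to 2349 CPM in I/R (log2 fold change -0.32, 95% interval -0.83 to 0.19, limma adjusted p = 0.569).

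Bhlhe40 and Bhlhe41 encode related repressors that compete at E-boxes and respond to many stimuli. Bhlhe41 in fibroblasts was at 52.8, 46.5 and 35.6 CPM in sham, 18.7, 5.94 and 6.84 CPM in I/R, and 12.2, 22.0 and 25.7 CPM in SBP. Sham was above both other groups, which overlapped each other, and I/R was 4.43-fold below sham (log2 fold change -2.15, SE 0.39, limma adjusted p = 0.00564). Bhlhe40 in fibroblasts was at 79.7, 65.8 and 127 CPM in sham, 27.3, 49.5 and 29.5 CPM in I/R, and 57.0, 40.9 and 53.9 CPM in SBP. It too was lower in every I/R mouse than in every sham mouse, by 2.51-fold (-1.33 on the log2 scale, SE 0.27, limma adjusted p = 0.00977), and both fibroblast calls were present under each alternative.

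Outside fibroblasts, 1 of the 6 values of these repressors was called. Cardiomyocyte Bhlhe41 was at 18.9, 23.6 and 22.3 CPM in sham, 9.85, 12.8 and 8.27 CPM in I/R, and 13.3, 14.3 and 16.5 CPM in SBP. The 3 groups did not overlap, and I/R was 2.02-fold below sham (log2 fold change -1.01, SE 0.20, limma adjusted p = 0.0398), but the call was missed without any one of the 3 sham replicates, I/R replicate 2 or 3, or SBP replicate 2 or 3, with log2 fold changes of -1.16 to -0.88 over all single omissions. It was also missed with the replicate block (-1.01, limma adjusted p = 0.0642), with total UMIs in place of TMM (limma adjusted p = 0.0602, the fold change moving by less than its SE), with no filter on low genes (-1.01, limma adjusted p = 0.0551), with only the 6 mice compared (-1.02, limma adjusted p = 0.0823), after either subtraction of free RNA and in the Ankrd1 cluster alone. Bhlhe40 was not called in cardiomyocytes (log2 fold change -0.76, 95% interval -1.68 to 0.16), endothelial nuclei (-0.27, 95% interval -0.64 to 0.11) or myeloid nuclei (0.48, 95% interval -0.19 to 1.14). The myeloid value depended on the processing, being 2.44 and called after subtraction of free RNA at the median ratio (limma adjusted p = 0.0286) and -0.71 in the Cd163 cluster alone (limma adjusted p = 0.546). The amount subtracted at the median ratio came to 105.5% of the measured myeloid Bhlhe40 level in sham and 30.7% in I/R. Bhlhe41 was not called in endothelial nuclei (-1.13) or myeloid nuclei (-1.04), with 128 and 178 UMIs in all 9 mice.

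**Figure D2:**
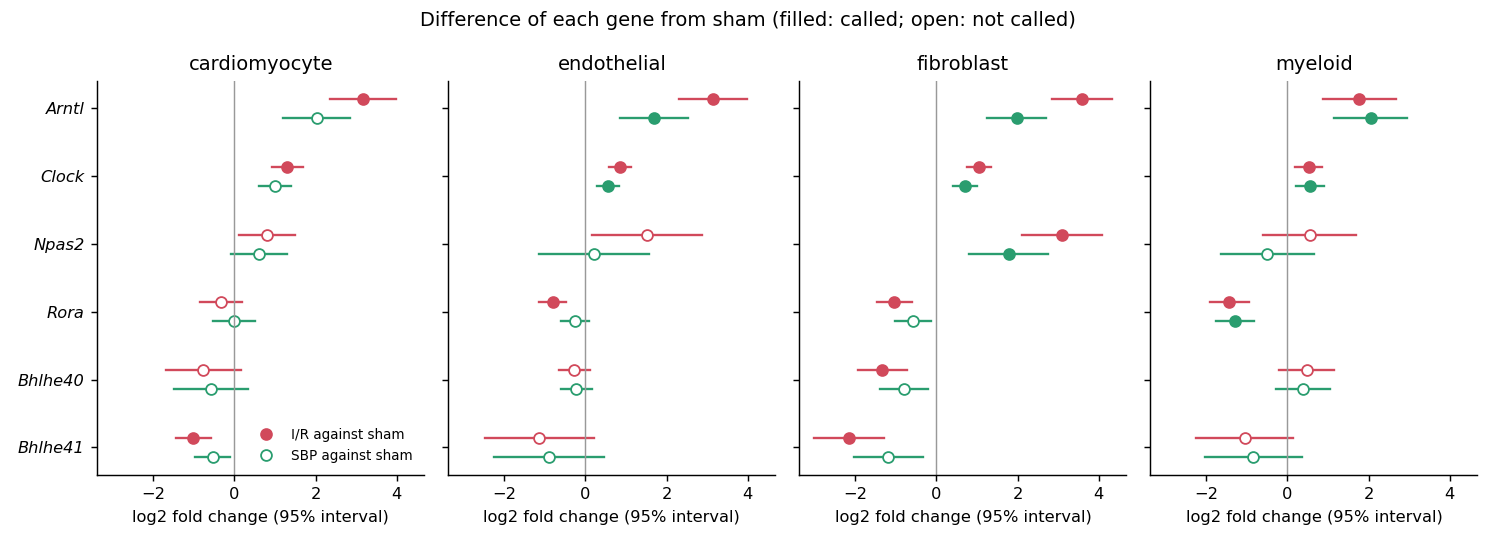
Log2 fold change of each gene (rows) against sham in each cell type (panels), for I/R and SBP mice. Points are estimates on the log2(CPM + 1) scale, lines are 95% intervals from limma, filled points were called and open points were not. Arntl lies at 3.13 to 3.59 for I/R in cardiomyocyte, endothelial and fibroblast nuclei and at 1.78 in myeloid nuclei.

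In whole-heart sums, where fewer cells of a type and less RNA per cell cannot be told apart, all 6 genes were called between I/R and sham, where 11.4% of all genes tested were. The log2 fold changes were 2.90 for Arntl, 0.97 for Clock, 1.11 for Npas2, -0.89 for Rora, -0.78 for Bhlhe40 and -1.52 for Bhlhe41. Arntl rose from 11.4, 11.4 and 14.8 CPM in sham to 125, 94.4 and 82.7 CPM in I/R, and was at 51.3, 40.0 and 67.5 CPM in SBP. The calls for Arntl, Clock and Bhlhe41 were present when any 1 mouse was left out. That of Rora was missed without sham replicate 3 (-0.84, limma adjusted p = 0.0642). That of Npas2 was missed without any 1 of the 3 sham or 3 I/R replicates or SBP replicate 3 (0.998 to 1.299 on the log2 scale over all omissions). It was also missed with no filter on low genes and without the nuclei of highest doublet score, and was called under 7 of 16 alternatives. That of Bhlhe40 was missed without sham replicate 1 or 3, I/R replicate 1 or 2, or SBP replicate 1 or 3 (-0.95 to -0.61 on the log2 scale over all omissions). The Bhlhe40 call was also missed with total UMIs in place of TMM, no filter, only the 6 mice compared and voom weights. It was called under 6 of 16 alternatives. Without sham replicate 3, 3 of the 6 genes were called.

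The difference of I/R from sham, called the I/R effect here, was compared between cell types within each mouse, for the 6 pairs of types. Of 36 values 1 was called. The Npas2 effect was 2.54 larger on the log2 scale in fibroblasts (3.09) than in myeloid nuclei (0.55), with SE 0.35 and limma adjusted p = 0.00333, and it was called under all 20 alternatives, at 2.32 to 2.88 with any 1 mouse left out. Subtraction of free RNA at the median ratio, 1 of these, left no myeloid Npas2. The difference of 3.92 there was the fibroblast effect alone and compared no 2 types. The myeloid Npas2 level did not exceed what RNA of other types could give. Across all genes tested, 7.17% were called for this pair, against 0.0352% for cardiomyocyte and endothelial nuclei, 1.96% for cardiomyocyte and fibroblast nuclei, 5.42% for cardiomyocyte and myeloid nuclei, 0.526% for endothelial and fibroblast nuclei and 3.06% for endothelial and myeloid nuclei.

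The other large differences between types missed the threshold. Npas2 in cardiomyocytes against fibroblasts differed by -2.30 (SE 0.51, limma adjusted p = 0.0513) and was called without I/R replicate 3 (-2.98, limma adjusted p = 0.0101) and under 5 other alternatives. Bhlhe40 in fibroblasts against myeloid nuclei differed by -1.80 (SE 0.49, limma adjusted p = 0.0531) and was called on log2(CPM + 5) (-1.62, limma adjusted p = 0.0264), with voom weights (-2.01, limma adjusted p = 0.0210) and after subtraction of free RNA at the median ratio (-3.83, limma adjusted p = 0.0366). That subtraction took more than the measured myeloid Bhlhe40 level in sham. For Arntl the smaller effect in myeloid nuclei was not separated from that in fibroblasts (difference 1.81, SE 0.59, limma adjusted p = 0.0959), although it was called without sham replicate 1 (2.47, limma adjusted p = 0.0419) or I/R replicate 3 (2.40, limma adjusted p = 0.0437), with the replicate block (limma adjusted p = 0.0221) and with voom weights (limma adjusted p = 0.0436). Bhlhe41 in cardiomyocytes against fibroblasts differed by 1.14 (limma adjusted p = 0.177), a value called without I/R replicate 1 (1.62, limma adjusted p = 0.0424). Between cardiomyocytes and endothelial nuclei, the Arntl effects of 3.18 and 3.13 differed by 0.04 (SE 0.29).

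Within the 4 types, pooled Arntl was higher after I/R in each of the 9 clusters with at least 50 nuclei in both groups. In the fibroblast cluster led by Abca8a it was at 10.6 CPM pooled over sham mice and 152 CPM over I/R mice. The cardiomyocyte cluster led by Gm17428 went from 7.15 to 107 CPM, and that led by Ankrd1, which held only 249 sham nuclei, from 10.9 to 64.6 CPM. The I/R value of the Gm17428 cluster came mostly from I/R replicate 1. In the myeloid cluster led by Cd163, a scavenger receptor of resident macrophages, Arntl was at 44.6 CPM in sham, 157 CPM in I/R and 201 CPM in SBP. In the cluster led by Wdfy4 and Flt3, genes of dendritic cells, it was at 14.2, 117 and 83.2 CPM. The leading genes of this cluster also included Neil3, Knl1 and Kif23, which are not particular to dendritic cells. It held 119 sham nuclei, and 206 of its 638 nuclei were among those with the highest doublet scores.

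Rora differed between fibroblast clusters as well as between groups. The Abca8a cluster had 7980 CPM in sham, 5740 CPM in I/R and 7062 CPM in SBP, whereas the Tnc cluster had 1340 CPM in I/R and 1515 CPM in SBP. With only the Abca8a cluster kept, the fibroblast difference of Rora between I/R and sham was -0.50 on the log2 scale in place of -1.03 and was not called (limma adjusted p = 0.280), an alternative chosen after seeing the data. The same restriction left fibroblast Arntl at 3.67, Npas2 at 3.44, Bhlhe40 at -1.66 and Bhlhe41 at -2.27, all called. With 1 cluster each, Arntl was also called in cardiomyocytes (2.89, Ankrd1 cluster), endothelial nuclei (3.16, Ccdc85a cluster) and myeloid nuclei (2.09, Cd163 cluster). Among endothelial clusters the one led by Tmem108 and Npr3 had the most Rora, at 2197 CPM in sham, 1161 CPM in I/R and 1735 CPM in SBP, and the one led by Mannr and Sema3g the least, at 1010, 536 and 788 CPM. Npas2 reached 302 CPM after I/R in the Abca8a fibroblasts (127 to 664 CPM over mice) and 161 CPM in the Tnc cluster, and 81.9 CPM in the Tmem108 endothelial cluster against 33.6 CPM in the larger one led by Ccdc85a. By the estimate described further on, RNA of other types could give 42.7% to 116% of the endothelial Npas2 level in I/R. Bhlhe40 in the endothelial cluster led by Reln and Mmrn1, genes of lymphatic vessels, was at 69.2, 76.5 and 79.0 CPM in sham, I/R and SBP, above the 15.6 to 37.4 CPM of the Tmem108 cluster.

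**Figure D3:**
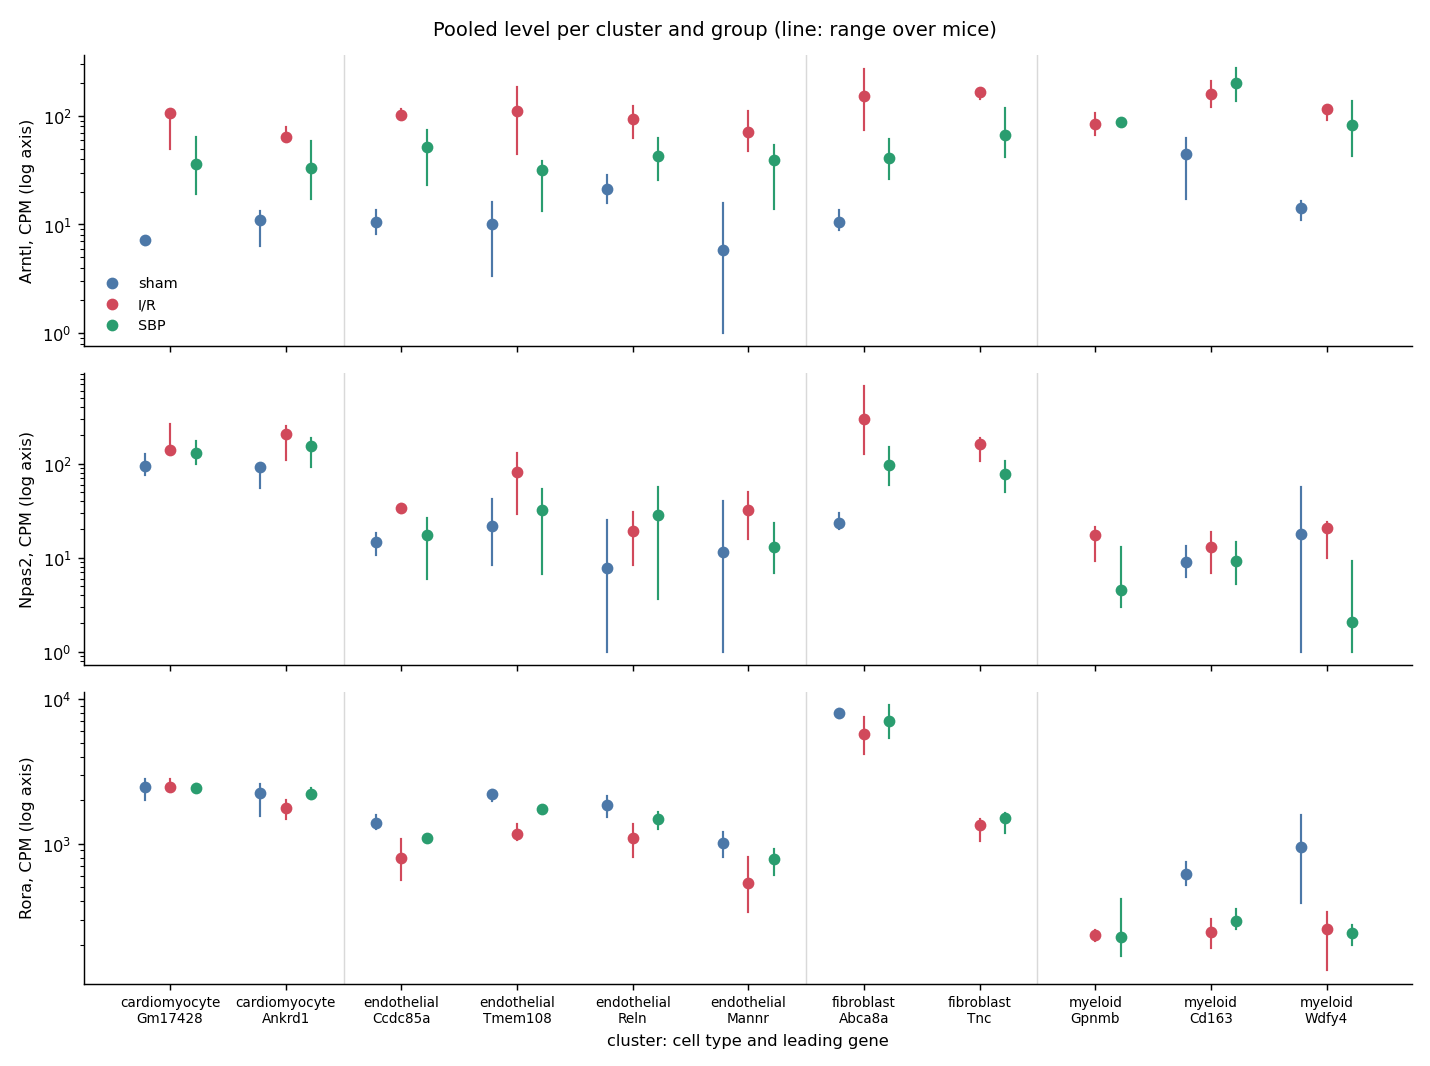
Levels of Arntl, Npas2 and Rora (vertical log axes, CPM) in 11 clusters of the 4 main types, each named by its type and leading gene. Points are UMIs pooled over the mice of a group, lines run from the lowest to the highest mouse with at least 20 nuclei (values under 1 are drawn at 1), and groups with under 50 nuclei in a cluster are not drawn. Rora in fibroblasts is at 7980 CPM in sham nuclei of the Abca8a cluster and at 1340 CPM in I/R nuclei of the Tnc cluster.

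RNA of one cell type that is free in the suspension is counted in nuclei of others, so each level was set beside what the other 3 types could give. That amount was estimated per mouse from the markers of each other type, at the lowest and at the median of their ratios. In fibroblasts it was at most 19.4% of the measured level for Arntl, Clock, Rora, Bhlhe40 and Bhlhe41 in any group, and for Npas2 32.9% to 48.9% in sham and 3.43% to 5.44% in I/R. In cardiomyocytes it was at most 16.4% for any of the 6 genes. Endothelial Arntl (12.97% to 39.2%) and Clock (9.09% to 30.3%) exceeded it, while for endothelial Npas2 it reached 128%, for Rora 105% and for Bhlhe41 131% in sham at the median ratio. After subtraction endothelial Rora was called at neither ratio. Whether free RNA caused the endothelial differences of these 3 genes was not tested. In myeloid nuclei it was 86.7% to 195% of the Rora level in sham and 86.4% to 251% in I/R, and over 100% of the Npas2 level in each group. For myeloid Bhlhe40 it was 50.3% to 105.5% in sham and 12.6% to 30.7% in I/R. Myeloid Rora (716, 727 and 507 CPM in sham, 263, 229 and 224 CPM in I/R, log2 fold change -1.43, limma adjusted p = 0.00127) was called beside that amount. After subtraction at the lowest ratio it was close in size and no longer called (-1.32, limma adjusted p = 0.566).

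After subtraction, an alternative chosen after seeing the data, 12 of the 15 calls between I/R and sham remained at the lowest ratio. The 3 lost were Bhlhe41 in cardiomyocytes and Rora in endothelial and myeloid nuclei. At the median ratio, which took more than the measured level from some values, 9 values were called, 8 of them among the 15 and the other myeloid Bhlhe40. All 6 fibroblast calls and the cardiomyocyte calls of Arntl and Clock were present at both ratios.

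**Figure D4:**
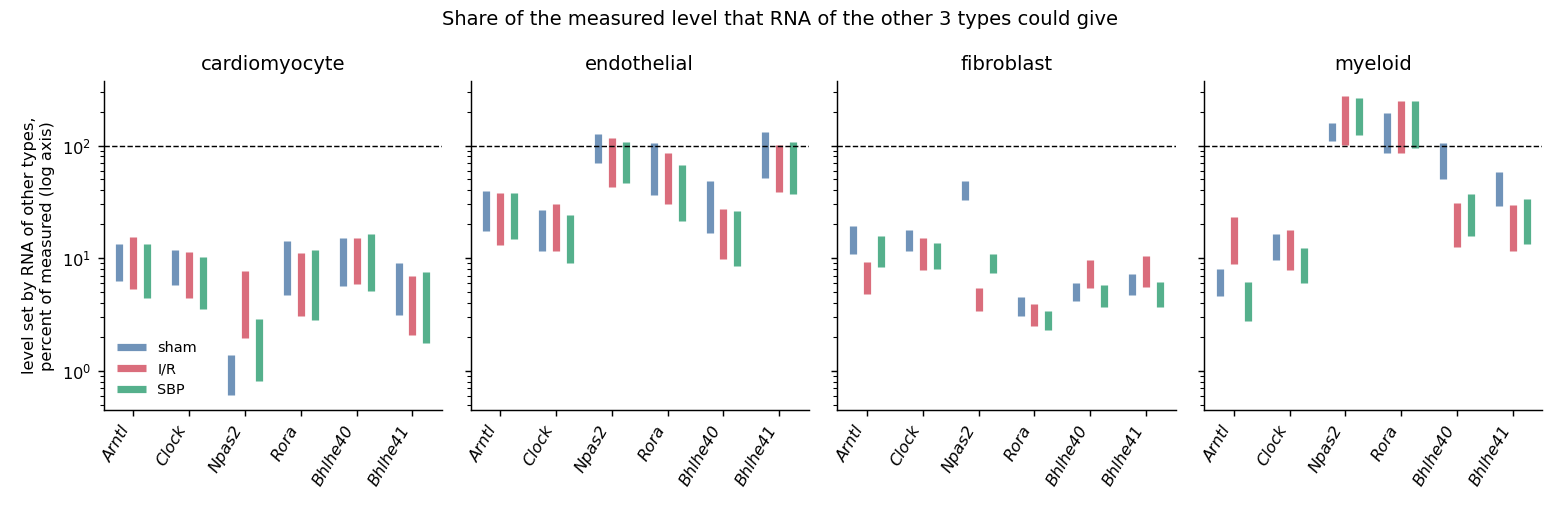
Level that RNA of the other 3 cell types could give, as a percent of the measured level (vertical log axis), for each gene, cell type (panels) and group (colours). Each bar runs from the estimate at the lowest marker ratio to that at the median ratio, and the dashed line marks 100%. In myeloid nuclei Npas2 lies at or above the line in all 3 groups, Rora crosses it, and Bhlhe40 crosses it in sham. Arntl reaches at most 39.2% and Clock at most 30.3% in any type.

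The second comparison asked whether SBP before I/R altered the 6 genes. Between SBP and I/R limma called 0 of the 24 values, as it called 0% of all genes tested in cardiomyocyte, endothelial, fibroblast and myeloid nuclei. At an unadjusted p under 0.05 there were 10 of 24, and limma with voom weights called 0 with 11 of 24 at that level. The shares of all genes given next belong to the fit without those weights. The 10 were 2 of 6 in cardiomyocytes (2.19% of all genes), 3 of 6 in endothelial nuclei (5.2%), 5 of 6 in fibroblasts (3.49%) and 0 of 6 in myeloid nuclei (3.89%). Under all 20 alternatives 0 were called. Fibroblast Arntl was 3.04-fold lower in SBP than in I/R with no overlap (log2 fold change -1.60, 95% interval -2.33 to -0.87, limma adjusted p = 0.951), and endothelial Arntl 2.71-fold lower with no overlap (-1.44, 95% interval -2.28 to -0.60, limma adjusted p = 0.938). For myeloid Arntl the difference was 0.28 (95% interval -0.63 to 1.18). Endothelial Rora was 1.47-fold higher in SBP with no overlap (0.56, 95% interval 0.22 to 0.90, limma adjusted p = 0.938). Clock in endothelial nuclei and fibroblasts was lower (-0.29 and -0.35) and Bhlhe41 in cardiomyocytes higher (0.49), each with no overlap and none called. The share of all genes without overlap between SBP and I/R is not given here, so the lack of overlap is a description only. 

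Between SBP and sham, which shares its mice with the comparisons above, 8 of 24 values were called. They were Arntl and Clock in endothelial nuclei (2.16% of all genes), Arntl, Clock and Npas2 in fibroblasts (5.9%) and Arntl, Clock and Rora in myeloid nuclei (12.7%). RNA of other types could give 96.1% to 247% of the myeloid Rora level in SBP, and after subtraction at the lowest ratio that difference was -3.42 on the log2 scale against -1.29 without subtraction, and was not called (limma adjusted p = 0.156). In cardiomyocytes limma called 0 of 6 with and without voom weights, where 0.139% of all genes were called. There 3 of 6 had an unadjusted p under 0.05, as did 13.4% of all genes. Among them were Arntl (log2 fold change 2.02, limma adjusted p = 0.0657) and Clock (1.01, limma adjusted p = 0.0614). Fibroblast Arntl was 3.96-fold above sham (1.98, SE 0.33, limma adjusted p = 0.00548) beside 12.01-fold in I/R. With only the Abca8a cluster kept, none of the 3 fibroblast calls of SBP against sham was present, with Arntl at 1.75 (limma adjusted p = 0.0950), Clock at 0.61 (limma adjusted p = 0.0836) and Npas2 at 1.86 (limma adjusted p = 0.160). Myeloid Arntl was 4.15-fold above sham (2.05, SE 0.41, limma adjusted p = 0.0108) beside 3.42-fold in I/R.

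Most of these calls were missed when 1 mouse was left out, while the fold changes kept their direction. Endothelial Arntl (1.70, limma adjusted p = 0.0493) was missed without any one of the 3 sham replicates, I/R replicate 2, or SBP replicate 1 or 3 (1.40 to 2.16 over all omissions). It was called under 7 of 20 alternatives. Further losses were with the replicate block (limma adjusted p = 0.063), log2(CPM + 5), voom weights, no filter, types by marker score and either subtraction of free RNA. Endothelial Clock (0.57, limma adjusted p = 0.0359) was missed without any one of the sham or SBP replicates (0.49 to 0.66). It was called under 10 of 20 alternatives. Other losses were with the replicate block (limma adjusted p = 0.057), with types by marker score (limma adjusted p = 0.058) and after either subtraction of free RNA. Fibroblast Npas2 (1.78, limma adjusted p = 0.0444) was missed without any one of the 3 sham replicates, I/R replicate 2, or SBP replicate 1 or 3 (1.43 to 2.10), and fibroblast Clock (0.71) among single omissions only without SBP replicate 2 (0.69, limma adjusted p = 0.0553). Fibroblast Npas2 was called under 9 of 20 alternatives. It was also missed with log2(CPM + 5), no filter, voom weights and without the nuclei of highest doublet score. Myeloid Clock (0.56, limma adjusted p = 0.0352) was missed without sham replicate 1 or 2 or any one SBP replicate (0.41 to 0.67), and was called under 11 of 20 alternatives. In the other direction, cardiomyocyte Arntl was called without I/R replicate 1 (2.03, limma adjusted p = 0.0173) or SBP replicate 2 (2.43, limma adjusted p = 0.0330), cardiomyocyte Clock without I/R replicate 1 or 3 (1.01 in both, limma adjusted p = 0.0168 and 0.0393), and fibroblast Bhlhe41 without I/R replicate 1 (-1.16, limma adjusted p = 0.0195).

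The cell types also differed in how much of each gene they held, a description with no test, given as CPM of the unscaled UMI totals. Rora had a fixed order in all 9 mice, at 5870 CPM in fibroblasts (mean of 9 mice, 3084 to 8489), 2185 CPM in cardiomyocytes, 1337 CPM in endothelial nuclei and 392 CPM in myeloid nuclei, of which RNA of other types could give 86.4% or more. Npas2 was highest in cardiomyocytes (145 CPM, 78.03 to 252), above fibroblasts (124 CPM, 20.4 to 434) in 7 of 9 mice, then 30.7 CPM in endothelial and 11.1 CPM in myeloid nuclei, each step holding in 9 of 9 mice. RNA of other types could give 42.7% or more of the endothelial Npas2 level and 100.3% or more of the myeloid one. The order at the top turned with the group, since in I/R mice the TMM-scaled mean of Npas2 was 244 ± 148 CPM in fibroblasts and 177 ± 61.4 CPM in cardiomyocytes (SD, n = 3), against 24.7 and 99.6 CPM in sham. Clock was highest in myeloid nuclei (224 CPM), above endothelial nuclei (188 CPM) in 9 of 9 mice, and endothelial nuclei were above fibroblasts (165 CPM) and fibroblasts above cardiomyocytes (129 CPM) in 8 of 9 mice each. For Arntl the order of the means ran from 93.7 CPM in myeloid nuclei through 72.6 in fibroblasts and 52.6 in endothelial nuclei to 39.6 CPM in cardiomyocytes, but myeloid nuclei were above fibroblasts in 7 of 9 mice and fibroblasts above endothelial nuclei in 6 of 9. In I/R mice alone the TMM-scaled means of Arntl were 153 CPM in fibroblasts, 112 CPM in myeloid nuclei, 106 CPM in endothelial nuclei and 75.6 CPM in cardiomyocytes, so this order too turned with the group. Bhlhe40 was highest in fibroblasts (58.2 CPM), above endothelial nuclei (35.8 CPM) in 7 of 9 mice, while cardiomyocytes (21.5 CPM) and myeloid nuclei (17.9 CPM) did not separate, with 5 of 9 mice in that order. Bhlhe41 was highest in fibroblasts (25.0 CPM), above cardiomyocytes (15.6 CPM) in 6 of 9 mice. This too depended on the group, with TMM-scaled means of 10.5 and 10.3 CPM in I/R mice against 45.0 and 21.6 CPM in sham.

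The smaller groups of nuclei were not tested between mice, and their values are UMIs pooled over the mice of a group with exact Poisson 95% intervals, which cover counting error only. Many of these nuclei were among the 2168 with the highest doublet scores, 398 of 775 T cell nuclei, 159 of 306 mural and Schwann nuclei and 128 of 337 B cell nuclei. In T cell nuclei Arntl was at 71.7 CPM in sham (45.9 to 107), 103 CPM in I/R (72.1 to 144) and 202 CPM in SBP (150 to 266). Rora, a known regulator of lymphoid lineages, was there at 1264 CPM in sham (1146 to 1390), 825 CPM in I/R (731 to 927) and 946 CPM in SBP (830 to 1074). In mural and Schwann nuclei Arntl was at 9.55 CPM in sham (3.50 to 20.8), 106 CPM in I/R (78.1 to 141) and 41.5 CPM in SBP (26.3 to 62.3). Npas2 was there at 20.7 CPM in sham (11.01 to 35.4), 179 CPM in I/R (142 to 222) and 37.9 CPM in SBP (23.5 to 58.0), and Rora at 5164 CPM (4987 to 5344), 2892 CPM (2738 to 3053) and 3819 CPM (3658 to 3985). In B cell nuclei Arntl was at 78.4 CPM in sham (46.5 to 124) and 73.6 CPM in I/R (20.1 to 188), the latter from 4 UMIs. B cell Rora was at 1014 CPM in sham (888 to 1153), 331 CPM in I/R (196 to 523) and 331 CPM in SBP (218 to 482). How much of these levels RNA of other cell types could give was not estimated for the smaller groups, T cell nuclei included.

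A list of 34 other genes was used, made of clock genes and of relatives of the 6 genes in their protein families. The relatives, such as Hif1a, Ahr, Hey1 and Hes1, are not all genes of the clock. For I/R against sham, 0 of 32 tested were called higher and 5 lower in cardiomyocytes (0.814% of all genes were called in either direction), 1 and 4 of 33 in endothelial nuclei (3.22%), 3 and 10 of 32 in fibroblasts (11.2%), and 4 and 6 of 27 in myeloid nuclei (17.7%). The counts of the smaller lists that follow stand beside the same shares. Their median log2 fold change was -0.10, -0.17, -0.35 and -0.21, beside -0.03, -0.01, -0.01 and 0.08 over all genes tested. Of the 8 genes of the repressor arm, the direct targets of the ARNTL pair, 2 were lower in cardiomyocytes, 2 in endothelial nuclei and 5 in fibroblasts, as were 3 of 7 in myeloid nuclei, and none was called higher. Of Dbp, Tef, Hlf and Nfil3, which bind D-boxes, 3 were lower in cardiomyocytes and 2 in endothelial nuclei, while in fibroblasts and in myeloid nuclei 3 were lower and 1 higher. Of the other factors of the ARNTL family (bHLH-PAS), 0 of 5 tested were higher in cardiomyocytes, 1 of 6 in endothelial nuclei, 2 of 5 in fibroblasts and 2 of 5 in myeloid nuclei. Among the remaining lists, 1 of 7 kinases and ubiquitin ligases (Btrc) and 1 of the relatives of Bhlhe40 (Hes1) were lower in fibroblasts, 1 of 3 outputs (Nampt) was higher in myeloid nuclei, and neither of the other ROR receptors was called. For SBP against I/R limma called 0 of these genes in any type.

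By name, the largest changes in fibroblasts were those of Dbp, an output factor (log2 fold change -3.85, SE 0.41), Nr1d1, which encodes REV-ERBα (-3.35, SE 0.89), and Ciart, a repressor of the ARNTL pair (-2.57, SE 0.44). Those of Dbp and Ciart were called under each alternative, and that of Nr1d1 was missed without any one of the sham or SBP replicates or I/R replicate 2 (-4.31 to -2.19 over all omissions). Fibroblast Nr1d1 was called under 7 of 20 alternatives. It was also missed with no filter, only the 6 mice compared, no nuclei of highest doublet score, either subtraction of free RNA and the Abca8a cluster alone. Cardiomyocytes had Dbp (-3.36, SE 0.49), Ciart (-2.89, SE 0.51) and Per3, a repressor of the PER family (-1.83, SE 0.21). There Dbp was missed without sham replicate 2 or 3 or I/R replicate 2 (-3.58 to -3.02), and Ciart without any one sham replicate, I/R replicate 2 or SBP replicate 3 (-3.50 to -2.45). Cardiomyocyte Dbp was also missed after subtraction of free RNA at the median ratio. Ciart was low, at means of 31.3 CPM in sham and 4.01 CPM in I/R in cardiomyocytes, 10.1 and 2.21 CPM in endothelial nuclei, and 11.6 and 1.525 CPM in fibroblasts. Cardiomyocyte Ciart was called under 9 of 20 alternatives and was also missed with the replicate block (-2.89, limma adjusted p = 0.0642), with voom weights (-3.19, limma adjusted p = 0.0694), with only the 6 mice compared (-2.90, limma adjusted p = 0.0662) and after either subtraction of free RNA (-2.91 and -2.90). Endothelial nuclei had Dbp (-3.63, SE 0.53), Per3 (-1.71, SE 0.26) and Ciart (-1.74, SE 0.32), the last missed without sham replicate 2 or 3 or I/R replicate 2 (-1.95 to -1.49). Over single omissions endothelial Dbp was at -4.32 to -3.19 and Per3 at -2.02 to -1.42. After subtraction of free RNA endothelial Ciart was at -1.30 (limma adjusted p = 0.159) at the lowest and -0.44 (limma adjusted p = 0.853) at the median ratio, and endothelial Dbp (-3.50, limma adjusted p = 0.0798) and Per3 (-1.31, limma adjusted p = 0.126) were not called at the median ratio. In the Ankrd1 cluster alone cardiomyocyte Ciart was at -1.54 (limma adjusted p = 0.532) and Per3 at -1.37 (limma adjusted p = 0.0892), neither called.

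In myeloid nuclei Dbp (-3.29, SE 0.43) and Nr1d2, which encodes REV-ERBβ (-2.38, SE 0.22), were lower after I/R. Nfil3, a repressor at D-boxes, had 1, 1 and 2 UMIs in the sham mice and 78, 304 and 65 UMIs in the I/R mice, at means of 1.29 and 50.5 CPM. Its fitted log2 fold change of 4.06 (SE 0.59) rests on these few sham UMIs and was 3.32 to 4.63 over all single omissions. It was not called with voom weights (4.30, limma adjusted p = 0.121) or in the Cd163 cluster alone (2.82, limma adjusted p = 0.129). Myeloid Dbp was not called after subtraction of free RNA at the median ratio (-2.55, limma adjusted p = 0.0511). Between SBP and sham the myeloid values of Nfil3, Dbp and Nr1d2 were 3.80, -2.22 and -1.93, and all 3 were called. There Nfil3 was not called with voom weights (4.02, limma adjusted p = 0.185) or in the Cd163 cluster alone (2.09, limma adjusted p = 0.325), Dbp was not called in that cluster (-2.06, limma adjusted p = 0.180) or under 2 other alternatives, and Nr1d2 was not called after subtraction at the median ratio (-3.62, limma adjusted p = 0.0589). In fibroblasts Ahr, a bHLH-PAS receptor (1.53, SE 0.31), and Arntl2, the paralogue of Arntl (0.64, SE 0.17), were called between SBP and sham. Ahr was low, at means of 2.75 CPM in sham and 9.90 CPM in SBP. It was missed without SBP replicate 2 (1.41, limma adjusted p = 0.0667) and in the Abca8a cluster alone (0.71, limma adjusted p = 0.392). Ahr was also missed with voom weights and after subtraction of free RNA at the median ratio. Arntl2 was missed without sham replicate 1 or 3, I/R replicate 2 or any one SBP replicate (0.53 to 0.76). Arntl2 was also missed with the replicate block (0.64, limma adjusted p = 0.0696) and under 5 other alternatives.

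The genes most like each member were ranked by Pearson's r over 36 points, 9 mice in 4 types that share libraries, after each type was centred, among 10118 genes. For Arntl, Clock came first (r = 0.94), followed by Hmox1, heme oxygenase (0.90), and Pf4 (0.86), and for Clock the order was Arntl, Hmox1 (0.89) and Col3a1 (0.87). Npas2 was most like Rnf19b (0.76), Eif4enif1 (0.74) and Efcab11 (0.71), and Rora like Zbtb20 (0.89), Ehbp1 (0.88) and Abcc9 (0.88). Bhlhe40 had weaker matches in Cdk8 (0.70), Socs5 (0.69) and Ppard (0.66), and Bhlhe41 was most like Dipk2a (0.81), Klhl42 (0.78) and Zfp597 (0.78). Among the members, Arntl and Rora had r = -0.70 and Arntl and Bhlhe41 -0.67 over these points. With the mean of each group also removed, r was 0.65 for Arntl and Clock and 0.41 for Arntl and Npas2, and the other pairs lay between -0.29 and 0.22.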

How the data were processed

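Nuclei of 9 mouse hearts were sequenced by sNuc-seq. According to the submitters' processing notes the reads were processed with Cell Ranger 4.0, STAR and Seurat 3.2.0 on GRCm38, and the versions in the study's methods differ from these. The deposited values are natural log values that the authors made per nucleus, ln(1 + 10000 × UMI / total). UMIs were recovered from them, with at least 99.99965% of values within 0.1 of a whole number. Nuclei (median 1540 to 2031 UMIs) were clustered on 2000 variable genes, leaving out the 6 genes and the list of 34 clock genes and relatives. The settings were 30 principal components, 20 neighbours and Leiden resolution 0.5, giving 14 clusters that were named from marker lists. Doublets were not removed, and leaving out the 2168 nuclei with the highest doublet scores was an alternative. UMIs were summed per mouse and cell type and tested with limma 3.58.1 (trend and robust, TMM scaling, log2(CPM + 1)) over genes that reached the CPM of 10 UMIs in the median library in at least 3 samples and 15 UMIs in all, with p-values adjusted over all genes tested. The test was also run on simulated data. Replicates were separate mice per the study, and Poisson intervals cover counting error only. Beside the 6 genes, the text names up to 3 genes of the list of 34 per cell type and comparison, by the largest fold change among those called. It also names the called genes Btrc, Hes1 and Nampt of the smaller lists, and the 3 genes with the highest r to each of the 6. The motif windows came from RefSeq (GRCm38.p6). The genes, lists, markers and tests were chosen with earlier results of these data known. R 4.3.3, Python 3.11.15, numpy 2.4.6, scipy 1.17.1, scikit-learn 1.9.0, leidenalg 0.10.2 and matplotlib 3.10.9 were used.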

Additional observations from a re-analysis of the deposited data

Results flagged for a closer look

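The I/R effect on Npas2 was 2.54 larger on the log2 scale in fibroblasts than in myeloid nuclei, and this difference passed its own test (limma adjusted p = 0.00333). RNA of other cell types could give 109% to 160% of the myeloid Npas2 level in sham and 100.3% to 276% in I/R, so the myeloid value is not read as a change in myeloid nuclei. The difference is the 1 value called among 36.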

How the results depend on the processing

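The 20 alternatives were other scaling, pseudocount, filter, weights, mice, doublets, type names, the replicate block and single omissions, and, chosen after seeing the data, subtraction of free RNA and 1 cluster per type. Of 31 called values of the 6 genes in the 4 types and whole-heart sums, 11 were called in each alternative run for them and 20 were missed in some. For whole-heart sums 16 alternatives were run, and myeloid Rora had a value in 19. The 15 calls of I/R against sham became 9 after free RNA at the median ratio, and 11 to 15 with 1 mouse left out. The 8 of SBP against sham became 5 with no filter, 5 with voom weights, 5 after free RNA at the median and 5 at the lowest ratio, 4 with 1 cluster per type, and 4 to 11 with 1 mouse left out. The 6 whole-heart calls became 3 to 6. The 1 difference between types became 2 with total UMIs, 8 with log2(CPM + 5), 8 with voom weights, 2 with types by marker score, 4 after free RNA at the median and 2 at the lowest ratio, and 1 to 3 with 1 mouse left out. The 33 calls of other clock genes became 16 after free RNA at the median ratio and 18 with 1 cluster per type, and 22 to 42 with 1 mouse left out. Endothelial Rora turned from -0.81 to 5.23 (limma adjusted p = 0.343) after free RNA at the median ratio, an amount that came to 105% of the measured sham level. Where another cause is not named here, the cause was not tested.

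Over all genes, single omissions and the other alternatives moved the calls of I/R against sham from 105 to between 18 and 809 in cardiomyocytes, from 394 to between 18 and 641 in endothelial nuclei, from 1469 to between 485 and 1665 in fibroblasts, from 1936 to between 153 and 1968 in myeloid nuclei, and from 1827 to between 404 and 2549 in whole-heart sums. Those of SBP against sham moved from 18 to between 0 and 393, from 264 to between 19 and 542, from 772 to between 117 and 1048 and from 1389 to between 134 and 1766 in the 4 types, and those of SBP against I/R from 0 to at most 1, 4, 1 and 11. For the differences between types they moved from 4 to between 0 and 18 (cardiomyocyte and endothelial nuclei), 231 to between 13 and 636 (cardiomyocyte and fibroblast), 557 to between 0 and 924 (cardiomyocyte and myeloid), 62 to between 4 and 330 (endothelial and fibroblast), 319 to between 0 and 704 (endothelial and myeloid) and 755 to between 2 and 998 (fibroblast and myeloid). Total UMIs in place of TMM shifted the median of all genes by 0.11 in whole-heart sums, -0.11 for endothelial minus fibroblast and 0.15 for fibroblast minus myeloid. With it the calls went from 956 higher and 871 lower to 1230 and 500 in whole-heart sums, from 15 higher and 47 lower to 14 and 88 for endothelial minus fibroblast, and from 354 higher and 401 lower to 486 and 262 for fibroblast minus myeloid.

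Samples with the same replicate number did not deviate together throughout (r over 0.1 in 12 of 36 pairs, range -0.32 to 0.30), so the numbers were not taken to pair the mice. Between sham and SBP, r was 0.12, 0.13 and 0.12 in fibroblasts and above 0 for all pairs of the other types (0.005 to 0.18). All pairs of replicate 3 were above 0 as well. The fibroblast calls of SBP against sham (Arntl, Clock and Npas2) were present with the replicate block too, while that of Arntl2 was not. The endothelial calls of SBP against sham (Arntl and Clock) were missed with the block. With the replicate block the calls were 14 of 24 for I/R against sham, 0 for SBP against I/R, 6 for SBP against sham, 6 of 6 in whole-heart sums, 2 of 36 for the differences and 29 of 124 for the list of clock genes and relatives. Counts were lowest for Bhlhe41 in endothelial and myeloid nuclei, with 128 and 178 UMIs in 9 mice.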
